A study of Homo sapiens with 4 samples.

Results

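The transcripts of 10 cell surface adhesion genes were followed in ES2 cells, an established human ovarian cancer cell line. They were the ICAM genes ICAM1, ICAM2, ICAM3, ICAM4 and ICAM5, the related immunoglobulin-type molecules VCAM1, ALCAM, NCAM1 and L1CAM, and CD44. They were taken by gene symbol and not by a filter on measured values, but with earlier results of these data known. The paper lists ICAM1 and VCAM1 primers for RT-qPCR of genes selected after this sequencing. All 10 genes are among the 23228 genes of the count tables. ES2 cells were grown in phenol red-free medium with charcoal-treated serum and received vehicle or 100 μM liquiritigenin (Liq), a plant flavanone used in the study as an agonist of estrogen receptor β, for 24 h. Each group had 2 samples, ES2 is 1 cell line, and no allele or transgene differed between the groups. The labels do not say whether the 2 samples of a group were separate cultures, so the p-values measure the spread between samples, which may be technical.

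Immunoglobulin-type adhesion molecules carry repeated immunoglobulin domains outside the cell and bind integrins or molecules of their own kind on a neighbouring cell. ICAM1 and VCAM1 are best known on endothelium, where inflammatory signals through NF-κB raise them and leukocyte integrins hold on to them, but many tumor cells carry them as well. ALCAM, NCAM1 and L1CAM bind their own kind between cells, and CD44 is the main receptor for hyaluronan, a sugar polymer of the matrix, and is widely present on carcinoma cells.

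ICAM1 and VCAM1 were lower in Liq-treated cells, NCAM1 and ICAM5 were higher, and the highly expressed CD44 and ALCAM differed little. ICAM1, ICAM4 and ICAM5 lie side by side on chromosome 19, and within that cluster ICAM1 fell while ICAM5 rose. ICAM2, ICAM4 and L1CAM were near the limit of detection. The 13546 genes with enough counts were compared between Liq and vehicle by edgeR's quasi-likelihood test, with p-values adjusted over all of them by the Benjamini-Hochberg method, and a gene was called at an adjusted p under 0.05. Of the 10 genes 7 were tested, 2 were called lower and 2 higher. Among all tested genes 11.3% were called lower and 12.6% higher. With the study's threshold of 1.5-fold added, ICAM1 and VCAM1 were called lower and only NCAM1 higher, against 2.16% and 4.29% of all tested genes.

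The starts of ICAM1, VCAM1 and ICAM5 are shown because the first pair fell together and the third, a close neighbour of ICAM1, rose. Each line gives the 250 bases before the transcription start, read in the direction of the gene from RefSeq (GRCh38.p14). ICAM1 lies at chr19:10270870-10271119 on the plus strand, VCAM1 at chr1:100719492-100719741 on the plus strand and ICAM5 at chr19:10289702-10289951 on the plus strand. Capitals mark matches to the NF-κB consensus or to the shorter motif GGNNNTTCC, searched on both strands. The consensus was read as GGG, A or G, any base, any base, C or T, C or T, then CC. Only the first listed window of a gene was read, so other starts of a gene, where listed, were not searched.
ICAM1: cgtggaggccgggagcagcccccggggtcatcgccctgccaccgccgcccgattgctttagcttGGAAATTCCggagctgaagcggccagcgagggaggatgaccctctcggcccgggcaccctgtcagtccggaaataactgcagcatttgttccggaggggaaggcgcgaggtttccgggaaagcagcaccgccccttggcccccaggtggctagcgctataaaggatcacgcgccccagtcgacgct
VCAM1: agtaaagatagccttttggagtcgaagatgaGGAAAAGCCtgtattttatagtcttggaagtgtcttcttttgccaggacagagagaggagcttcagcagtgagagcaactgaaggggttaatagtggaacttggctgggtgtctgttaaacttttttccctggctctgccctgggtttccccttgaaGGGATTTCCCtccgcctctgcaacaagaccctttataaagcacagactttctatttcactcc
ICAM5: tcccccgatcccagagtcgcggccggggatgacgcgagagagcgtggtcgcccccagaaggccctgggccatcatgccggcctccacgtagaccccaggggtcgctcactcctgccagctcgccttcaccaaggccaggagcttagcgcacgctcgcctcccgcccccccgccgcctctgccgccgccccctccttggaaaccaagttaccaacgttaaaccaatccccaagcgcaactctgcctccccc

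ICAM1 held GGAAATTCC, a match to the shorter motif only, from base -186 to -178, counted back from the start. No match to the NF-κB consensus was found in this window of ICAM1. VCAM1 held the NF-κB consensus as GGGATTTCCC from base -62 to -53, overlapped there by the shorter motif, and a second match to the shorter motif on the opposite strand from base -219 to -211. No match to either motif was found in this window of ICAM5, ALCAM, CD44 or L1CAM, while ICAM3 and ICAM4 each held 1 place that matched the consensus. Of 35116 RefSeq promoter windows of the same length, 9.96% held the consensus and 17.1% the shorter motif. The AP-1 motif TGANTCA, present in 6.57% of windows, and the palindromic estrogen response element GGTCANNNTGACC, present in 0.0399%, had no match in any of the 8 windows read. The table holds no entry for ICAM2 or NCAM1. These matches are letters in a window, and binding was not measured.

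Levels are given as TMM-normalised CPM, the reads on a gene relative to all reads on genes in its library, scaled between libraries. ICAM1, which binds the leukocyte integrins LFA-1 and Mac-1, was measured at 144 and 138 CPM with vehicle and at 82.6 and 77.7 CPM with Liq. Both Liq samples lay below both vehicle samples, and the gap was far wider than the spread within either group. The mean fell from 141 ± 3.7 to 80.1 ± 3.4 CPM (SD, n = 2). On the log2 scale this was -0.82 with SE 0.08 (edgeR, adjusted p = 6.01e-09). The 95% interval of the fold change ran from 0.510 to 0.632. VCAM1, the partner of the α4 integrins, was measured at 56.2 and 58.4 CPM with vehicle and at 27.3 and 30.0 CPM with Liq. The groups again did not overlap, and the level with Liq was close to 0.501 times that with vehicle. On the log2 scale it fell by 0.997 with SE 0.09 (edgeR, adjusted p = 2.08e-09), with a 95% interval of the fold change from 0.443 to 0.567. VCAM1 and ICAM1 ranked 69 and 82 by p-value among the 13546 genes. In bulk RNA, fewer cells carrying a transcript and less of it per cell cannot be told apart.

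**Figure D1:**
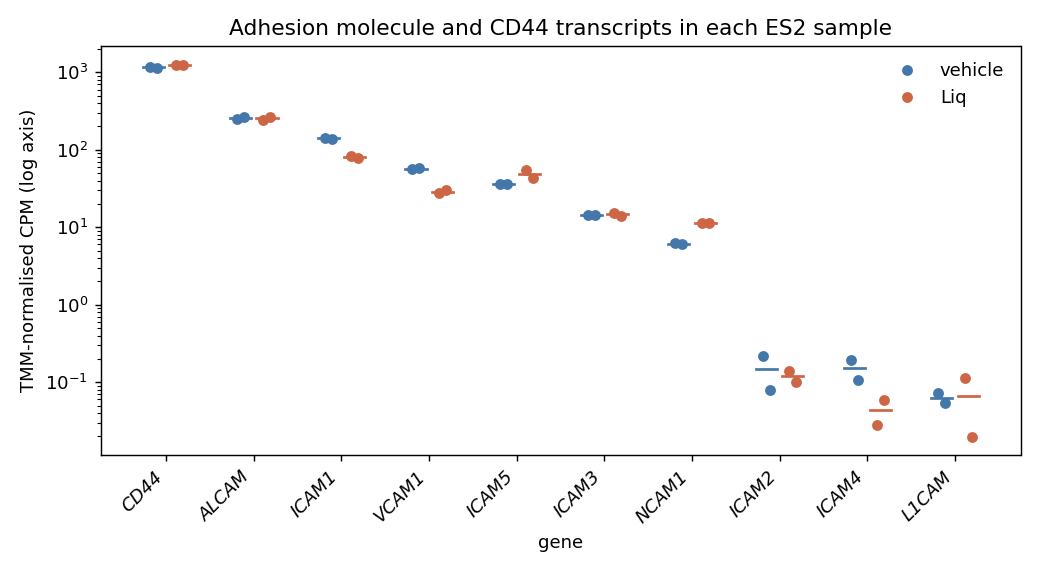
TMM-normalised CPM (log axis) of the 10 genes, ordered by level, in the 2 vehicle samples (blue points) and the 2 Liq samples (orange points), with short lines at the group means. CD44 lies above 1149 CPM in each sample, ICAM1 and VCAM1 are separated downward and NCAM1 and ICAM5 upward with Liq, and ICAM2, ICAM4 and L1CAM stay under 0.219 CPM.

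NCAM1, a neural cell adhesion molecule that binds its own kind, was lowly expressed and rose with Liq. Its counts were 256 and 228 with vehicle and 399 and 564 with Liq, or 6.23 and 6.09 CPM against 11.2 and 11.2 CPM. The replicates were nearly equal within each group and the groups were well apart. On the log2 scale it rose by 0.87 with SE 0.12 (edgeR, adjusted p = 4.52e-06), and the 95% interval of the fold change ran from 1.54 to 2.15. ICAM5, first described in neurons of the telencephalon, was measured at 36.7 and 35.8 CPM with vehicle and at 54.1 and 43.5 CPM with Liq. The groups did not overlap, but the Liq samples differed from each other more than the vehicle samples did. On the log2 scale it rose by 0.43 with SE 0.09 (edgeR, adjusted p = 0.00173), under 1.5-fold. Without Liq replicate 1 it was 0.26 (adjusted p = 0.0250), and without Liq replicate 2 it was 0.58 (adjusted p = 1.3e-08).

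CD44 was by far the most abundant of these transcripts, with 43027 to 63178 counts per sample, and ranked 49 by mean CPM among all tested genes. It was measured at 1181 and 1149 CPM with vehicle and at 1260 and 1259 CPM with Liq. Both Liq samples lay above both vehicle samples by a small margin, which did not pass the test (log2 fold change 0.11, SE 0.06, adjusted p = 0.160 by edgeR). The 95% interval, from -0.399% to 17.3%, covers a small rise and does not reach 1.5-fold. With offsets fitted along the expression level in place of TMM, the log2 fold change of CD44 was 0.22 and it was called higher (adjusted p = 0.00643). ALCAM, which binds CD6 on lymphocytes as well as its own kind, was measured at 250 and 268 CPM with vehicle and at 243 and 267 CPM with Liq. The groups overlapped, and the log2 fold change of -0.02 with SE 0.07 did not pass (edgeR, adjusted p = 0.858), with a 95% interval from -10.9% to 8.93%. ICAM3, a ligand of LFA-1 on resting leukocytes, was measured at 14.6 and 14.3 CPM with vehicle and at 15.3 and 14.1 CPM with Liq. Its groups overlapped too, and the log2 fold change of 0.02 with SE 0.10 did not pass (edgeR, adjusted p = 0.904), with a 95% interval from -12.3% to 17.5%. The intervals of CD44, ALCAM and ICAM3 all ended short of 1.5-fold. The direction of ALCAM and of ICAM3 turned with the offsets along expression, to 0.059 and -0.029.

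**Figure D2:**
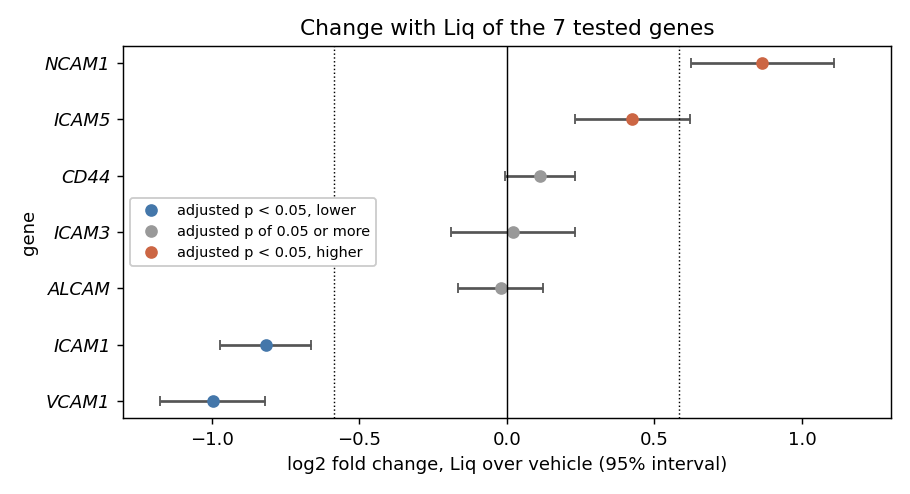
Log2 fold change of Liq over vehicle for the 7 tested genes, with 95% intervals from edgeR's quasi-likelihood fit and dotted lines at 1.5-fold in either direction. The intervals of VCAM1 and ICAM1 lie wholly below the lower line, that of NCAM1 lies wholly above the upper line, that of ICAM5 crosses the upper line, and those of CD44, ICAM3 and ALCAM include 0.

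The other 3 genes did not pass the filter on low counts and were not tested. ICAM2, a ligand of LFA-1 on endothelium and platelets, had 9 and 3 counts with vehicle and 5 and 5 with Liq. ICAM4, the Landsteiner-Wiener antigen of red cells, had 8 and 4 counts with vehicle and 1 and 3 with Liq. L1CAM, which is studied as a marker of invasive gynecologic tumors, had 3 and 2 counts with vehicle and 4 and 1 with Liq. A level of 3 counts, the floor used here, corresponds to 0.060 to 0.084 TMM-normalised CPM in these libraries. No fold change is given for these genes, and at these counts a change in them was not tested.

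Between genes, levels were compared per kilobase of exon as RPKM, using the merged exons of each gene in GENCODE. CD44 came first at 117 ± 2.3 RPKM in vehicle (SD, n = 2), followed by ICAM1 at 40.9 ± 1.1, ALCAM at 36.1 ± 1.7, VCAM1 at 9.47 ± 0.26, ICAM5 at 9.21 ± 0.16, ICAM3 at 5.18 ± 0.07 and NCAM1 at 0.485 ± 0.008 RPKM. By merged exons VCAM1 and ICAM5 did not differ beyond their spread. With the length of 1 canonical transcript per gene, VCAM1 was above ICAM5 at 18.5 ± 0.5 against 12.0 ± 0.2 RPKM, and ALCAM came ahead of ICAM1 at 55.1 ± 2.7 against 47.6 ± 1.2 RPKM. The order of ALCAM and ICAM1 in vehicle thus depended on the length used. With Liq, ALCAM exceeded ICAM1 by either length, at 35.6 ± 2.3 against 23.2 ± 1.0 RPKM by merged exons, and so did ICAM5 over VCAM1, at 12.4 ± 1.9 against 4.74 ± 0.31 RPKM. ICAM2, ICAM4 and L1CAM were at or under 0.105 RPKM in the mean of either group.

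**Figure D3:**
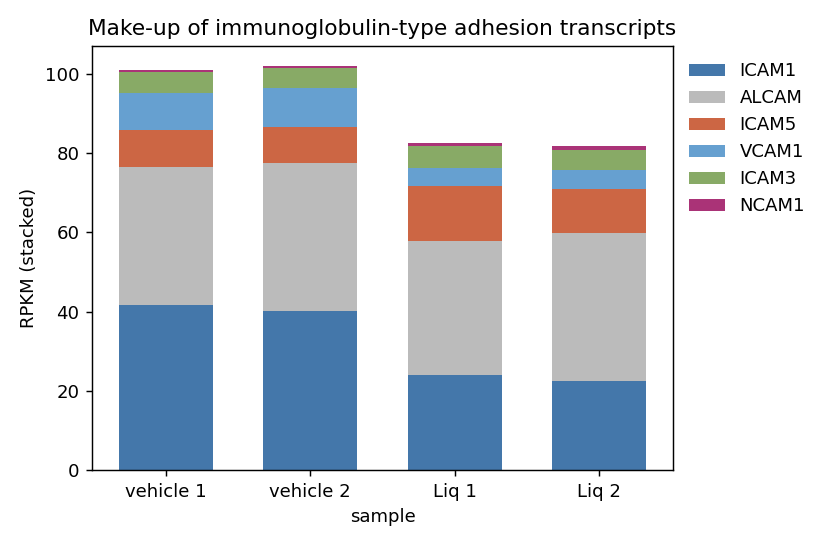
RPKM by merged exons of ICAM1, ALCAM, ICAM5, VCAM1, ICAM3 and NCAM1, stacked for each of the 4 samples. The 9 immunoglobulin-type genes sum to 101 and 102 RPKM with vehicle and 82.6 and 81.8 RPKM with Liq, and ICAM2, ICAM4 and L1CAM, too low to be seen, are not drawn.

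The make-up of the immunoglobulin-type transcripts shifted accordingly. ICAM1 made up 41.2% and 39.4% of their summed RPKM with vehicle and 29.0% and 27.6% with Liq. ALCAM, whose own level differed little, made up 34.5% and 36.6% with vehicle and 41.1% and 45.5% with Liq. ICAM5 went from 9.22% and 8.92% to 16.7% and 13.5%, and VCAM1 from 9.19% and 9.46% to 5.47% and 6.06%. Within a sample, the level of ICAM5 was 0.224 and 0.226 times that of ICAM1 with vehicle and 0.574 and 0.490 times with Liq.

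ICAM1 (GRCh37 chromosome 19, 10381769 to 10397291), ICAM4 (10397631 to 10399198) and ICAM5 (10400628 to 10407454) are transcribed in the same direction, and 3336 bases separate the end of ICAM1 from the start of ICAM5. ICAM3 lies on the opposite strand at 10444452 to 10450337. Among genes that lie within 100 kb of this cluster, 9 others were tested, and 1 was lower and 0 were higher with Liq by edgeR. The gene that fell was PDE4A, a phosphodiesterase gene at the far edge of the window, at -0.37 on the log2 scale (edgeR, adjusted p = 0.00619). The nearest tested genes on either side of the ICAM1 and ICAM5 pair, MRPL4 and ZGLP1, stood at -0.13 and -0.03 on the log2 scale and did not pass (edgeR, adjusted p = 0.263 and 0.932). GENCODE places the antisense RNAs LIMASI and ICAM4-AS1 over parts of ICAM1. Neither has a row of that name in the tables, and the strand setting of the counting is not given in the sources used here, so their part in the ICAM1 and ICAM4 counts was not tested. The same holds for the antisense RNAs annotated over parts of NCAM1, CD44 and L1CAM. VCAM1 (chromosome 1, 101185298 to 101204601) and ALCAM (chromosome 3, 105085753 to 105295744) stand apart from the cluster, and CD44 (35160429 to 35253949) and NCAM1 (112831997 to 113149158) lie far from each other on chromosome 11. The single tested neighbour of NCAM1 within 100 kb, TTC12, was also higher (log2 fold change 0.30, adjusted p = 0.0256 by edgeR). The single tested neighbour of CD44, the glutamate transporter gene SLC1A2, had 28 and 21 counts with vehicle and 34 and 66 with Liq, and was higher by 0.89 on the log2 scale (edgeR, adjusted p = 0.0274).

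**Figure D4:**
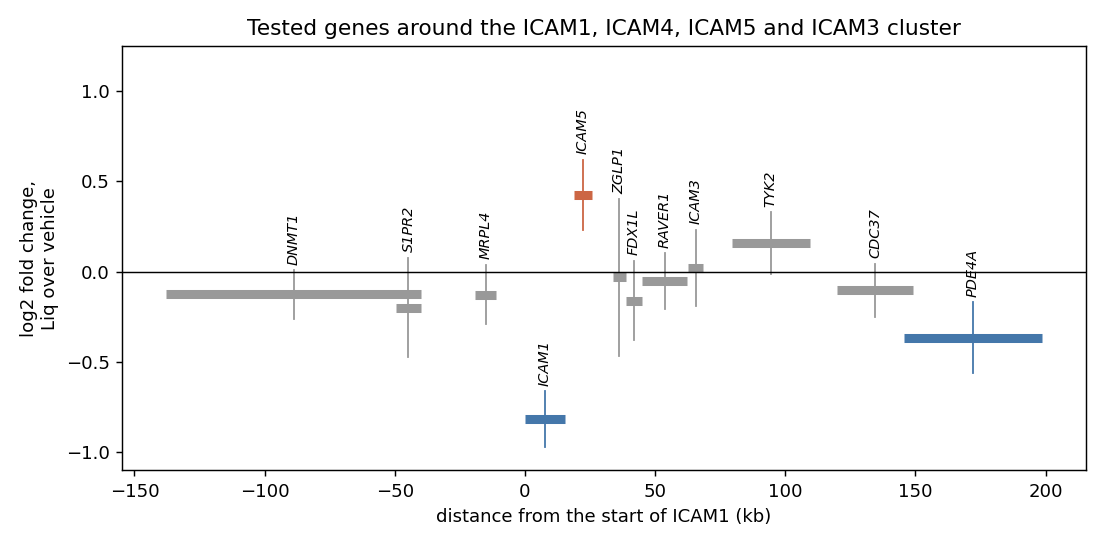
Log2 fold change of Liq over vehicle (vertical axis) for each tested gene against its distance from the start of ICAM1 in kb, where thick bars span the gene and thin lines are 95% intervals. ICAM1 (blue) and ICAM5 (orange) lie on opposite sides of 0, the other genes up to CDC37 (grey) have intervals that reach 0, and PDE4A (blue) at the right edge is lower. ICAM4 was not tested and is not drawn.

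The profile of VCAM1 over the 4 samples was most like those of the receptor tyrosine kinase gene EPHA4, the inflammasome sensor gene NLRP3 and the AMP deaminase gene AMPD3, at distances of 0.0638, 0.110 and 0.139 between centred log2 CPM values among 4848 genes of similar level. These fell by 0.98, 1.05 and 0.86 on the log2 scale. NCAM1 was most like DHRS3, a retinal reductase gene, WDR31 and ODZ2, a teneurin gene, at distances of 0.0182, 0.0547 and 0.0682 among 2410 genes. Their log2 fold changes were 0.86, 0.84 and 0.82. With 4 samples these distances mainly reflect the size of the difference between the groups.

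Partners of the adhesion molecules were examined in 9 lists with 118 genes in all, of which 82 were tested. By edgeR's test 11 were higher and 13 lower with Liq, or 13.4% and 15.9%, close to the shares of all tested genes given above, and their median log2 fold change was -0.01 against 0.006 for all tested genes. Where either vehicle sample was left out both numbers were lower, and so was the number called over all genes. The lists are small, and none was tested as a set.

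Among other immunoglobulin-type adhesion molecules, 5 of 18 tested genes were higher and 0 lower, against 12.6% and 11.3% of all tested genes. Their median log2 fold change was 0.12, and of the 5 only CHL1 reached 1.5-fold. The nectin gene PVRL1 rose from 25.5 ± 2.0 to 37.1 ± 1.6 CPM (SD, n = 2), or 0.54 on the log2 scale (edgeR, adjusted p = 0.000111). PVRL2, another nectin, F11R, a tight junction molecule, and THY1 rose by 0.31, 0.41 and 0.56 on the log2 scale (adjusted p = 0.00925, 0.0108 and 0.0205). The fifth was CHL1, a close relative of L1CAM, with 15 and 8 counts against 23 and 31. The endothelial molecule PECAM1 had 10 and 5 counts with vehicle and 2 in each Liq sample, and was not tested.

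Of the receptors that bind these molecules, 3 of 10 tested genes were higher and 0 lower, against 12.6% and 11.3% of all tested genes. Their median log2 fold change was 0.11, and of the 3 only ITGB3 reached 1.5-fold. ITGB3, the β3 integrin that binds L1CAM together with the αv chain, rose by 1.22 on the log2 scale (adjusted p = 4.94e-12 by edgeR). The VCAM1 receptor chains ITGA4 and ITGB1 rose by 0.23 and 0.17 (adjusted p = 0.0325 and 0.0381). The leukocyte chains ITGAL and ITGAM, which bind ICAM1, each had 1 count in 1 sample and 0 in the others. ITGAX, another of these chains, had 20 and 5 counts against 27 and 27 and did not pass the test (adjusted p = 0.0951). The β2 chain ITGB2 stood at 64.1 ± 2.9 CPM with vehicle and 64.1 ± 3.0 CPM with Liq (SD, n = 2). The αv chain ITGAV had a log2 fold change of -0.03 that did not pass (edgeR, adjusted p = 0.831).

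Among ligands and enzymes around CD44, 1 of 10 tested genes was higher and 2 were lower, against 12.6% and 11.3% of all tested genes. Their median log2 fold change was -0.13. KIAA1199, which takes part in hyaluronan breakdown, fell from 66 and 51 counts to 27 and 36, or -1.01 on the log2 scale (edgeR, adjusted p = 0.00539). SRGN, the serglycin proteoglycan, fell by 0.21 on the log2 scale (adjusted p = 0.0207). SPP1, the osteopontin gene, had a log2 fold change of 0.58 (adjusted p = 0.00857), and the hyaluronan receptor gene HMMR had one of 0.20 that did not pass (adjusted p = 0.0671).

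Of 11 tested linkers to the cytoskeleton, 3 were lower and 0 higher, against 11.3% and 12.6% of all tested genes. None of the 3 reached 1.5-fold, and the median log2 fold change of the list was -0.01. MSN, encoding moesin, which ties CD44 and the ICAMs to actin, fell from 1318 and 1261 CPM to 978 and 929 CPM, or -0.44 on the log2 scale (edgeR, adjusted p = 4.8e-06). ANK3, an ankyrin of the kind that binds L1CAM, and the actin crosslinker ACTN1 fell by 0.43 and 0.33 on the log2 scale (adjusted p = 0.000422 and 0.000563). The related linkers EZR and RDX had log2 fold changes of -0.13 and 0.08 that did not pass (adjusted p = 0.173 and 0.429). Among 10 tested proteases that release these molecules from the surface, MMP14, which cleaves CD44, fell by 0.58 (adjusted p = 3.76e-07) and ADAM17 had a log2 fold change of 0.29 (adjusted p = 0.0131), and the median was 0.11.

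Of 7 tested regulators of CD44 variant splicing, 3 were lower and 0 higher, against 11.3% and 12.6% of all tested genes. None of the 3 reached 1.5-fold. HNRNPM, KHDRBS1 and SRSF1 fell by 0.30, 0.26 and 0.25 on the log2 scale (adjusted p = 0.00127, 0.00532 and 0.00561 by edgeR), and the median was -0.19. ESRP1, the epithelial splicing factor that favours CD44 variant exons, had 2 and 3 counts with vehicle and 11 and 8 with Liq and was not tested. The tables hold 1 count per gene, so CD44 isoforms were not measured.

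Among 14 regulators of ICAM1 and VCAM1 transcription, 4 were lower and 1 higher with Liq, against 11.3% and 12.6% of all tested genes. Their median log2 fold change was -0.09, and of the called genes only RELB reached 1.5-fold. RELB and NFKB1, which encode NF-κB subunits, fell by 0.61 and 0.38 on the log2 scale (edgeR, adjusted p = 8.54e-05 and 0.00128). The subunit genes RELA, NFKB2 and REL had log2 fold changes of -0.11, -0.17 and 0.22 that did not pass (edgeR, adjusted p = 0.304, 0.125 and 0.325). NFKBIA, an inhibitor that is itself an NF-κB target, fell by 0.36 (adjusted p = 0.00490). The interferon γ receptor chain IFNGR2 fell by 0.50 (adjusted p = 3.22e-05), and the TNF receptor gene TNFRSF1A rose by 0.42 (adjusted p = 0.000273). ST8SIA4, which adds polysialic acid to NCAM1, had a log2 fold change of 0.23 (adjusted p = 0.481) and ST8SIA2 was at 0 counts. Of the selectins and their ligand only SELPLG was tested, with a log2 fold change of -0.39 (adjusted p = 0.313).

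**Figure D5:**
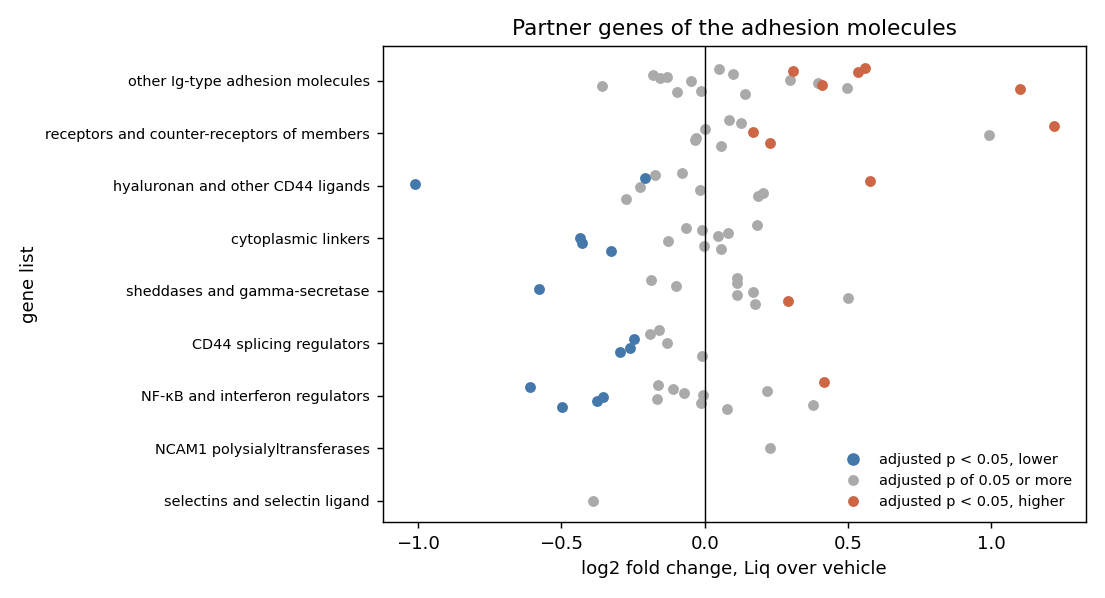
Log2 fold change of Liq over vehicle for the tested genes of each partner list, 1 point per gene, coloured by edgeR's call at an adjusted p under 0.05. Orange points (11 higher genes) and blue points (13 lower genes) lie among grey points that did not pass, and the highest point is ITGB3 at 1.22.

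Libraries held 34573053 to 48933893 reads on genes. Alignments to more than 1 place made up 35.6% to 36.2% of the counting tally and were set aside. This is a share of tally entries and may not equal a share of reads. Leukocyte markers were near absent, with a summed level of 0.159 to 0.309 CPM over 7 genes, and PTPRC had 1 count in 1 sample. Endothelial markers summed to 363 to 400 CPM with vehicle and 313 to 343 CPM with Liq, of which TIE1 and CDH5 made up most, while VWF and TEK had 7 counts or fewer and CLDN5 and EMCN had 0. Of the 7 endothelial genes 3 were tested, and 2 were lower (KDR and TIE1) and 0 higher, against 11.3% and 12.6% of all tested genes. Their part in the ICAM1 and VCAM1 result was not tested. Of 7 epithelial markers, CDH1 had 0 counts and EPCAM and KRT19 at most 3, and the list summed to 453 to 494 CPM with vehicle and 528 to 574 CPM with Liq, nearly all from keratins. KRT7 was higher and KRT18 lower with Liq (0.51 and -0.24 on the log2 scale, edgeR, adjusted p = 1.08e-05 and 0.0132), and KRT8 and CLDN4 did not pass. The part of these markers in the results was not tested. Among ovarian carcinoma markers MUC16 had at most 1 count, and PAX8 and WT1, at 1.21 and 4.46 CPM with vehicle, were lower with Liq. Of 5 neuronal markers RBFOX3, ELAVL3 and STMN2 had 0 counts, SNAP25 was higher with Liq (log2 fold change 0.72, adjusted p = 2.05e-05 by edgeR), and SYP, at 44 and 50 counts with vehicle and 51 and 58 with Liq, did not pass (0.09 on the log2 scale, adjusted p = 0.824). An exact two-sided permutation test of a single gene with 2 samples against 2 cannot go below p = 0.333, so each call draws on a variance estimated from many genes.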

How the data were processed

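RNA of 2 vehicle-treated and 2 Liq-treated ES2 samples was sequenced as 100 bp single reads from Illumina TruSeq libraries. Per the labels, base calls were made with bcl2fastq 2.17.1.14, reads were aligned to hg19 (GRCh37) with TopHat2 2.0.8b and counted per gene with HTSeq. The authors deposited raw counts per gene symbol for each sample, neither normalized nor pooled. Reads with more than 1 alignment or gene are left out by this counting, which lowers the counts of genes that have near-identical copies. Lines that name no gene were kept out of library sizes and tests, and 54.1% to 55.6% of the tally entries were on genes.

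The test was the quasi-likelihood F test of edgeR 4.0.16 in R 4.3.3 (glmQLFit, glmQLFTest), with TMM scaling, no replicate block, and genes kept by filterByExpr at a count of 10 and a total of 15. SE is the size of the log2 fold change divided by the square root of F. Intervals are 95% and cover the error of the fit. Alternatives were DESeq2 1.42.0 size factors, loess offsets along expression (span 0.3), no filter on low counts, the DESeq2 Wald test, a replicate block, leaving out 1 sample at a time, and the 1.5-fold threshold with an adjusted or unadjusted p. Functions were tested on simulated data. Merged exons, canonical transcripts and coordinates came from GENCODE v44 lifted to GRCh37. Promoters came from RefSeq.

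The genes and lists were chosen with earlier results of these data known. The named genes are the 10 genes, up to 4 per partner list by p-value, and the 3 genes nearest in profile to the higher and the lower gene with the smallest p-value among the 10. Others named were chosen after their values were seen.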

Additional observations from a re-analysis of the deposited data

How the results depend on the processing

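ICAM1, VCAM1, NCAM1 and ICAM5 kept their direction and their call at an adjusted p under 0.05 in all 9 alternative fits, with log2 fold changes from -0.86 to -0.77, -1.07 to -0.94, 0.78 to 0.88 and 0.26 to 0.58. The study's 1.5-fold threshold, with an adjusted or an unadjusted p, left 1 of the 10 genes higher (NCAM1). CD44 was called higher with loess offsets (0.22, adjusted p = 0.00643) and with the replicate block (0.11, adjusted p = 0.0237), but not in the other 7 fits. ALCAM and ICAM3, never called, changed sign with loess offsets (0.059 and -0.029), and across fits that left out 1 sample they ran from -0.091 to 0.043 and from -0.036 to 0.081. Partner genes called higher numbered 6 with the DESeq2 Wald test, 18 with the replicate block, 2 with 1.5-fold and an adjusted p, 3 with 1.5-fold and an unadjusted p, and 4 to 12 with 1 sample left out. Those called lower numbered 19 with the replicate block, 2 with 1.5-fold and either p, and 8 to 17 with 1 sample left out. The cause of these differences was not tested. The sample titles share replicate numbers without a stated pairing, the deposited files number the Liq samples differently, and the correlation of same-numbered deviations was 0.0483. Over all genes, 4795 were called with the block and 2328 with the DESeq2 Wald test, against 3245 in the main fit. The number over all genes also fell where a vehicle sample was left out. Where 1 sample was left out, the lone sample of its group is assumed to vary like the other group. No scaling moved the median of all genes by over 0.1. Counts of 9 or fewer in ICAM2, ICAM4 and L1CAM limit what can be said of them.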
